A study of Mus musculus with 8 samples.

Results

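The genes described are 45 genes of DNA repair and of the replication checkpoint, chosen by symbol from 24421 gene symbols counted in mouse bone marrow-derived macrophages (macrophages grown in culture from marrow). They cover homologous recombination (10 genes), the Fanconi pathway of crosslink repair (9), enzymes of recombination junctions and nucleases (4), mismatch repair (2), checkpoint kinases and their mediators (7), sensing of DNA breaks (5), end joining (5) and repair at stalled replication forks (3). All 45 were in the files and all 45 passed the filter on low counts. Total RNA was sequenced from 4 libraries of OPA1f/f mice that carry Lyz2-Cre, here CKO, and from 4 libraries of OPA1f/f mice, here FLOX. Every culture of both groups had IL-4 for 24 h, so no untreated culture was compared. The floxed Opa1 alleles are shared by both groups, and Lyz2-Cre is a driver that is active in cells of the myeloid lineage. No FLOX library carries the driver, so the loss of Opa1, the driver and any unlabelled batch cannot be told apart. Nothing in the labels ties the libraries to separate mice, so p-values rest on the spread among these 8 libraries, which may be technical. Ages are not analysed here.

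A broken chromosome is mended either by homologous recombination, which copies the intact sister chromatid, or by end joining, which seals the ends directly. The Fanconi pathway opens crosslinks that block a replication fork, and the kinases ATR and ATM pass the signal of stalled forks and of breaks to CHEK1 and CHEK2, which hold the cell cycle. Recombination needs a sister chromatid and its genes are expressed mainly in cells that replicate their DNA, whereas end joining also serves resting cells.

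Libraries held 11764855 to 18939948 read pairs in genes. Values are counts scaled to library size with TMM factors (CPM, per 1000000 counts), and values by library are given in the order replicates 2, 6, 7 and 8 for CKO and replicates 3, 4, 6 and 7 for FLOX. Lyz2 stood at 1809 to 2387 CPM in CKO and at 6906 to 8294 CPM in FLOX, so the level of this gene separated all 8 libraries by label. How much of this difference comes from the driver was not tested, so Lyz2 alone does not settle the genotype of a library. Opa1, counted over the whole gene and thus not restricted to the deleted part, had a log2 fold change of -0.19 (adjusted p = 0.0544), and the fits without FLOX replicate 3 (adjusted p = 0.0182) or FLOX replicate 6 (adjusted p = 0.0496) called it. All 6 macrophage markers were expressed (summed level 4522 to 5179.6 CPM in CKO and 5621 to 5772 CPM in FLOX). Of these Csf1r, Cd68 and Mertk were called lower in CKO (log2 fold change -0.42, -0.48 and -0.78), Fcgr1 higher (1.04) and Adgre1 and Itgam neither. Of 8 islet markers, checked because the extraction protocol speaks of islets, 7 were at 0 in every library. Of 7 markers of neutrophils and their precursors 1 (Elane) was at 0 everywhere, and their summed level was 2.22 to 4.36 CPM in CKO and 0.994 to 1.75 CPM in FLOX, with Ltf called higher (1.75). The summed level of 4 stromal markers was 11.6 to 13.6 CPM in CKO and 7.31 to 8.93 CPM in FLOX, nearly all of it from Pecam1, an endothelial gene that myeloid cells also express, which was called higher (0.68). The part of these marker differences in the results below was not tested.

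The repair and checkpoint genes were higher in CKO in nearly every role. By edgeR's quasi-likelihood test with Benjamini-Hochberg adjustment over 11519 tested genes, 38 of the 45 rose, where 23.8% of all tested genes rose. None was called lower (0 at an unadjusted p under 0.05, 0 by DESeq2 and 0 by limma-voom), where 21.6% of all tested genes fell. The median log2 fold change of the 45 was 0.93, with a range from -0.07 to 1.75, beside a median of -0.02 over all tested genes. A rise of at least 1 on the log2 scale was called for 19 of the 45 and for 4.67% of all tested genes. In 36 members every CKO library lay above every FLOX library, which held for 22.7% of all tested genes. In bulk RNA, more cells that express a gene and more RNA per cell cannot be told apart.

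**Figure D1:**
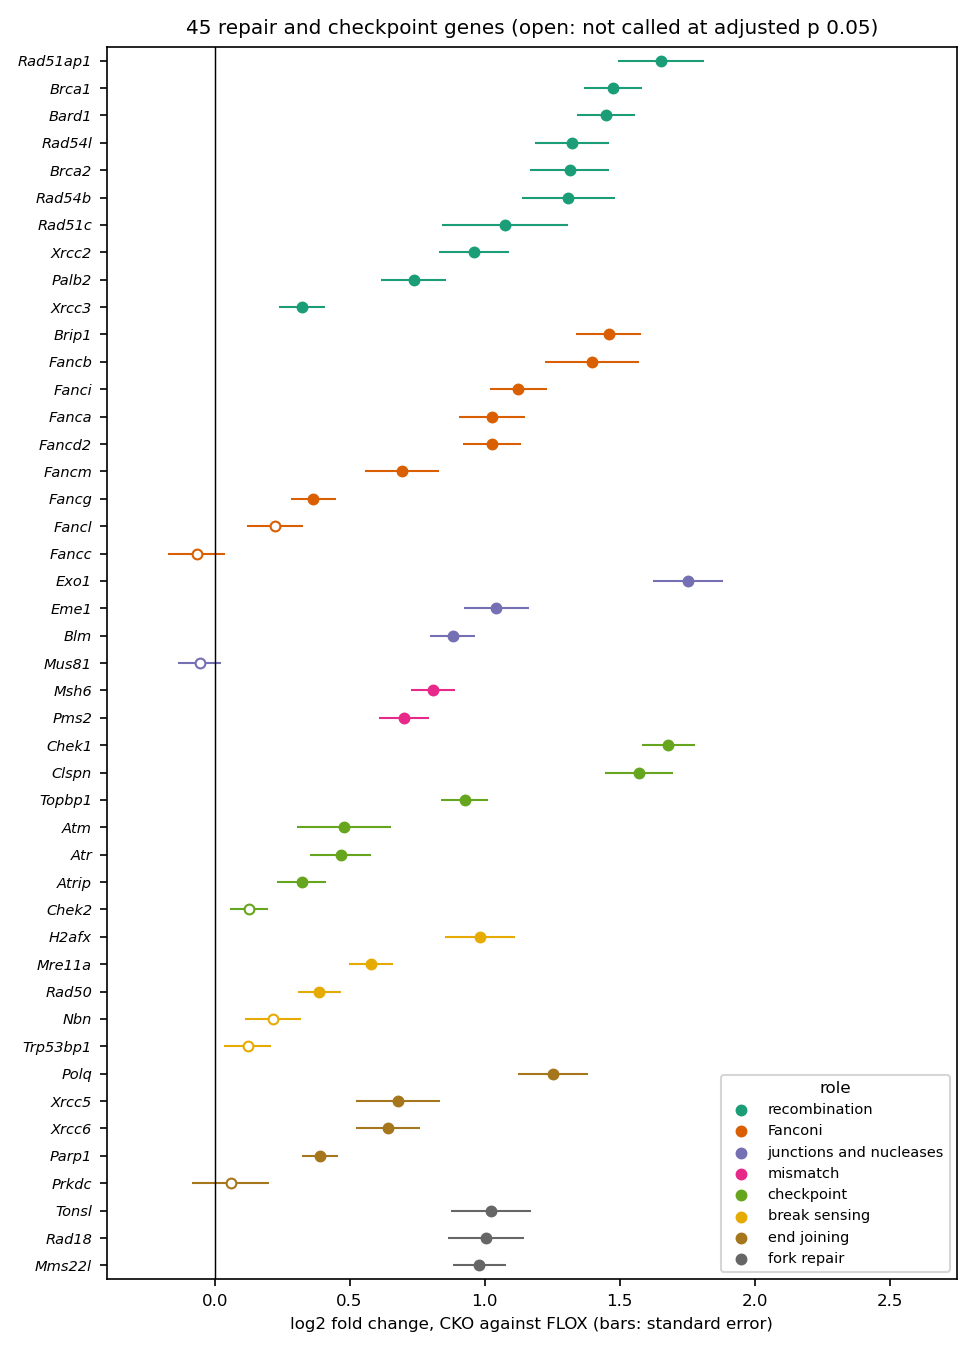
Log2 fold change of CKO against FLOX (horizontal axis) for each of the 45 genes (vertical axis), coloured by role, with standard errors as bars; open circles were not called at an adjusted p of 0.05. The 38 filled circles lie to the right of 0, from 0.32 for Atrip to 1.75 for Exo1, and 7 open circles lie between -0.07 and 0.22.

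The rise went along with that of genes for DNA replication and mitosis. The summed level of the 45 genes was 1500.1 to 1750.5 CPM in CKO and 901 to 1077 CPM in FLOX. Of 16 replication genes, such as the MCM helicase subunits, 16 rose (median log2 fold change 1.25), with a summed level of 1301 to 1511 CPM in CKO and 474 to 682 CPM in FLOX. Of 12 mitosis genes 11 rose (median 0.82), with a summed level of 2820.2 to 3355 CPM in CKO and 1556 to 1919 CPM in FLOX. In all 3 lists CKO replicate 2 was the lowest CKO library and FLOX replicate 6 the highest FLOX library. How much of the rise of the repair genes goes with a larger share of cycling cells was not tested.

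**Figure D2:**
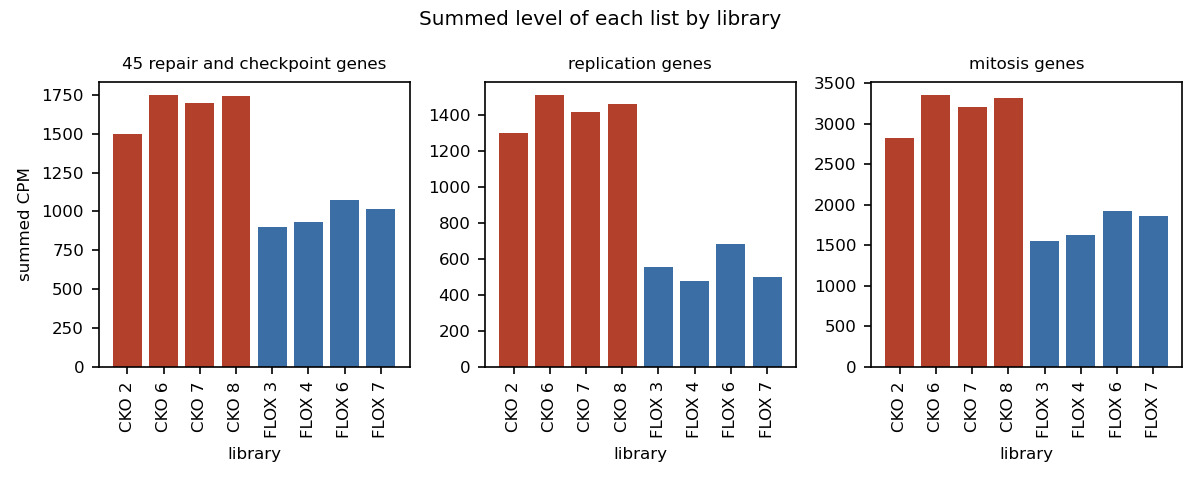
Summed CPM (vertical axis) in each of the 8 libraries (horizontal axis, CKO red, FLOX blue) for the 45 repair and checkpoint genes, 16 replication genes and 12 mitosis genes. In each panel the 4 CKO bars are all taller than the 4 FLOX bars, CKO replicate 2 is the shortest red bar and FLOX replicate 6 the tallest blue bar.

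The start sites of several members carry the letters of an E2F site. E2F proteins are transcription factors of the entry into DNA replication. RefSeq promoter windows (GRCm38.p6, the assembly of mm10; 250 bases before to 50 after a start) were at hand for 36 members, and were searched on both strands for the exact octamers TTTGGCGC, TTTCGCGC, TTTCCCGC and TTTGCCGC. At least 1 of them was in the windows of 9 members (10 of 39 windows, or 25.6%), beside 2.26% of all 32851 windows and 3.99% of the 11342 windows of tested genes. The 9 were Brca2, Bard1, Rad51c, Fancg, Msh6, Chek2, Clspn, Topbp1 and Xrcc6. Of these, 8 rose (of 31 members called higher that had a window) and 1, Chek2, did not pass the test (of 5 that were not called). Shown are 4 stretches upstream of the start, with the octamer in capitals (TTTCCCGC, read on the reverse strand as GCGGGAAA, or TTTCGCGC, read on the reverse strand as GCGCGAAA). They are clear of annotated exons of the gene itself, and exons of other genes were not checked. Brca2 (chr5:150522393-150522520, plus strand), Bard1 (chr1:71103147-71103222, minus strand) and Topbp1 (chr9:103305138-103305214, plus strand) are genes that rose, and Chek2 (chr5:110839771-110839898, plus strand) is the one that was not called.
Brca2: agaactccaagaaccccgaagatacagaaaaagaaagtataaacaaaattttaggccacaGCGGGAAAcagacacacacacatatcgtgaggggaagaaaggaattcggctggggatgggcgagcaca
Bard1: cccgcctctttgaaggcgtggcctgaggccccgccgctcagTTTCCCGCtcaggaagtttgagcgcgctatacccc
Topbp1: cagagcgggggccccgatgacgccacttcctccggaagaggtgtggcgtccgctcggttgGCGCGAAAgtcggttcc
Chek2: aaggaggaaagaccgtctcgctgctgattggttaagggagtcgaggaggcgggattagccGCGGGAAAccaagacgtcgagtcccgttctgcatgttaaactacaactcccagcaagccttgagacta
The CCAAT box, CCAAT on either strand, was in the windows of 20 of the 36 members (21 of 39 windows, or 53.8%, beside 37.4% of all windows and 37.9% of the windows of tested genes). The CHR element TTTGAA, found at genes of late cell cycle phases, was in those of 3 members (3 of 39 windows, or 7.69%, beside 17.9% of all windows and 11.9% of the windows of tested genes). These are matches of letters in a window, with no measure of binding.

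All 10 recombination genes rose. Brca1 (ENSMUSG00000017146, chromosome 11, 101488764 to 101551955, minus strand, GRCm38, as for all positions below), whose product takes part in the resection of a break, was at 55.7, 68.3, 66.2 and 74.3 CPM in CKO and 20.4, 21.9, 27.8 and 24.9 CPM in FLOX (log2 fold change 1.47 with an SE of 0.11, adjusted p = 9.05e-07). Its obligate partner Bard1 (ENSMUSG00000026196, chromosome 1, 71027498 to 71103146, minus strand) was at 26.3, 33.5, 29.3 and 31.7 CPM in CKO and 11.1, 9.61, 12.9 and 10.4 CPM in FLOX (log2 fold change 1.45 with an SE of 0.11, adjusted p = 9.12e-07). For both genes the lowest CKO library was about 2.01 times the highest FLOX library or more (2.01 for Brca1, 2.04 for Bard1), and the groups did not overlap. Brca2, which acts at resected single-stranded DNA, was at 18.6, 23.1, 24.5 and 27.6 CPM in CKO and 7.08, 9.38, 11.6 and 9.44 CPM in FLOX (log2 fold change 1.31 with an SE of 0.15, adjusted p = 1.65e-05). Palb2, the bridge between BRCA1 and BRCA2, rose less, by 0.74 (SE 0.12), with means of 9.15 ± 1.53 CPM in FLOX and 15.3 ± 1.48 CPM in CKO (mean ± SD, n = 4 per group).

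Among the genes of strand pairing, Rad51ap1 (ENSMUSG00000030346, chromosome 6, 126923050 to 126939587, minus strand), which promotes the pairing of strands, rose most. It was at 35.7, 45.5, 44.4 and 43.9 CPM in CKO and 13.8, 10.1, 18.4 and 11.00 CPM in FLOX (log2 fold change 1.65 with an SE of 0.16, adjusted p = 9.03e-06). The translocases Rad54l and Rad54b, which remodel the paired DNA, rose to a like extent. Rad54l was at 32.4, 45.7, 40.4 and 44.7 CPM in CKO and 14.2, 14.7, 21.00 and 14.97 CPM in FLOX (log2 fold change 1.32 with an SE of 0.14, adjusted p = 1.13e-05). Rad54b was at 10.3, 14.6, 11.5 and 12.6 CPM in CKO and 4.42, 3.48, 6.70 and 4.90 CPM in FLOX (log2 fold change 1.31 with an SE of 0.17, adjusted p = 6.22e-05), with 35.9% of its exon bases shared with Fsbp and another gene, so its count is uncertain. In both, FLOX replicate 6 was the highest FLOX library and still lay below all CKO libraries. Rad51c, Xrcc2 and Xrcc3, which act in the same step, rose by unequal amounts. Rad51c was at 5.11, 6.00, 5.05 and 5.80 CPM in CKO and 2.59, 1.66, 4.10 and 1.70 CPM in FLOX (log2 fold change 1.08 with an SE of 0.23, adjusted p = 0.00243), and its FLOX libraries spread more than those of any other member relative to their mean (SD 45.4% of the mean). Xrcc2 rose by 0.96 and Xrcc3 by 0.32 (SE 0.13 and 0.08), the latter with means of 10.5 ± 0.655 CPM in FLOX and 13.2 ± 0.607 CPM in CKO (mean ± SD, n = 4 per group).

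In the Fanconi pathway 7 of 9 genes rose. Among genes of the core complex, Fanca, Fancb and Fancg rose, and Fancc and Fancl were not called. The core complex is the ubiquitin ligase that acts on the pair FANCD2 and FANCI at a crosslink. Fanca was at 18.1, 22.3, 20.7 and 22.2 CPM in CKO and 8.13, 10.7, 12.4 and 9.51 CPM in FLOX (log2 fold change 1.03 with an SE of 0.12, adjusted p = 2.7e-05). Fancb, on chromosome X, was at 7.38, 9.29, 8.81 and 7.75 CPM in CKO and 3.01, 1.89, 3.67 and 3.90 CPM in FLOX (log2 fold change 1.40 with an SE of 0.17, adjusted p = 4.24e-05). The groups did not overlap in either gene, whereas Fancg rose by 0.37 with CKO libraries at 27.02 to 31.05 and FLOX libraries at 19.5 to 24.2 CPM. Fancc was at 6.62, 7.32, 6.60 and 7.55 CPM in CKO and 7.01, 7.49, 8.15 and 6.67 CPM in FLOX (log2 fold change -0.07 with an SE of 0.11, adjusted p = 0.636), and the ranges of the groups overlapped. Fancl, which holds the ligase activity, was at 8.80, 10.9, 11.7 and 11.7 CPM in CKO and 8.76, 9.15, 9.56 and 9.51 CPM in FLOX (log2 fold change 0.22 with an SE of 0.10, adjusted p = 0.0997). Only CKO replicate 2 overlapped the FLOX libraries of Fancl, and without it the gene was called (log2 fold change 0.32, edgeR adjusted p = 0.0119). In 15 of 17 alternatives Fancl was not called.

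The substrates of the core complex and the helicases of the pathway rose as well. Fancd2 was at 33.3, 45.1, 43.95 and 43.9 CPM in CKO and 18.4, 18.9, 21.3 and 23.1 CPM in FLOX (log2 fold change 1.03 with an SE of 0.11, adjusted p = 9.63e-06). Its partner Fanci was at 22.9, 29.1, 30.3 and 31.3 CPM in CKO and 12.4, 12.2, 14.5 and 13.1 CPM in FLOX (log2 fold change 1.12 with an SE of 0.11, adjusted p = 4.62e-06). Both genes were near a doubling, with no overlap of the groups. Brip1, a helicase that binds BRCA1, was at 38.98, 50.4, 45.2 and 50.7 CPM in CKO and 14.02, 15.7, 20.9 and 16.5 CPM in FLOX (log2 fold change 1.46 with an SE of 0.12, adjusted p = 2.05e-06). Fancm, a translocase that brings the core complex to the fork, rose by 0.69 (SE 0.14), and its highest FLOX library (15.2 CPM in replicate 7) came close to its lowest CKO library (15.9 CPM in replicate 2).

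Exo1 rose most of all 45 genes. It encodes the exonuclease that chews back DNA at breaks and mismatches (ENSMUSG00000039748, chromosome 1, 175880581 to 175913489, plus strand) and was at 19.4, 19.1, 21.2 and 19.9 CPM in CKO and 4.98, 4.84, 7.78 and 5.68 CPM in FLOX (3.37-fold, 95% interval 2.70 to 4.21; log2 fold change 1.75 with an SE of 0.13, adjusted p = 1.02e-06). Every CKO library was at least 2.46 times the highest FLOX library. Blm, the helicase that dissolves crossed junctions, was at 33.1, 41.3, 39.1 and 40.6 CPM in CKO and 20.2, 19.6, 21.6 and 22.4 CPM in FLOX (log2 fold change 0.88 with an SE of 0.08, adjusted p = 4.96e-06). Eme1 and Mus81 form a nuclease that cuts such junctions, and only Eme1 passed the test. Eme1 was at 18.8, 21.03, 20.7 and 22.5 CPM in CKO and 10.03, 7.87, 12.4 and 9.65 CPM in FLOX (log2 fold change 1.04 with an SE of 0.12, adjusted p = 2.24e-05). Mus81 was at 12.3, 11.7, 12.6 and 12.9 CPM in CKO and 12.1, 13.2, 12.7 and 13.4 CPM in FLOX (log2 fold change -0.06 with an SE of 0.08, adjusted p = 0.601), and its groups overlapped.

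Both mismatch repair genes rose, by less than Exo1, which acts in the same pathway. Msh6, which takes part in finding base mismatches, was at 40.8, 41.9, 44.5 and 46.6 CPM in CKO and 22.3, 23.00, 26.8 and 27.04 CPM in FLOX (log2 fold change 0.81 with an SE of 0.08, adjusted p = 7.78e-06). Pms2, part of the endonuclease that follows it, was at 15.9, 18.3, 15.3 and 18.3 CPM in CKO and 9.61, 10.3, 11.2 and 10.5 CPM in FLOX (log2 fold change 0.70 with an SE of 0.09, adjusted p = 6.57e-05). The CKO and FLOX libraries did not overlap in either gene.

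**Figure D3:**
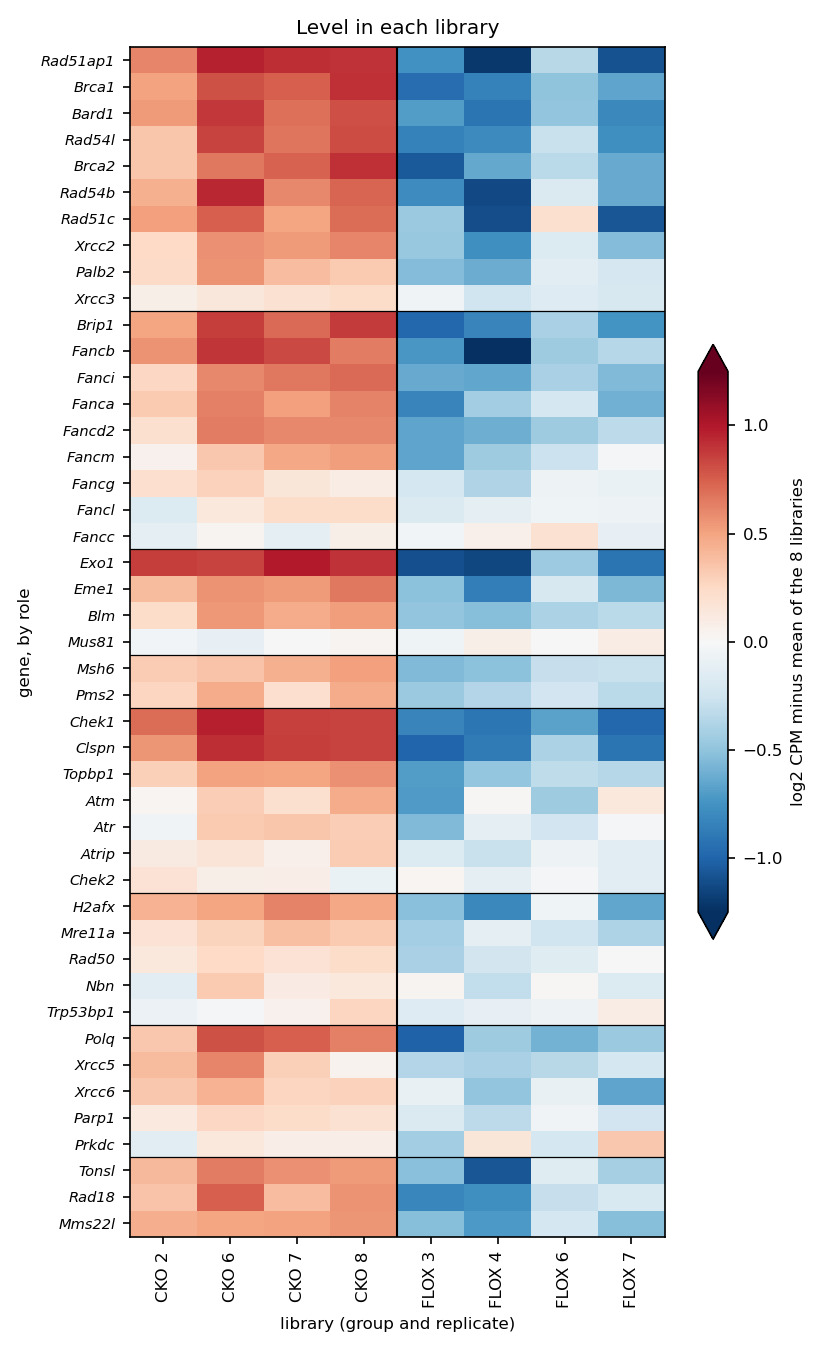
Log2 CPM minus the mean of the 8 libraries (colour, red above and blue below the mean) for each gene (rows, ordered by role and then by fold change, black lines between roles) in each library (columns, CKO left of the line). Most rows are red in the 4 CKO libraries and blue in the 4 FLOX libraries, whereas Fancc, Mus81, Chek2, Nbn, Trp53bp1 and Prkdc show little colour or colours that do not follow the groups.

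In the arm of ATR and CHEK1, the members Chek1, Clspn, Topbp1, Atr and Atrip passed the test. Chek1 (ENSMUSG00000032113, chromosome 9, 36708482 to 36727065, minus strand), the kinase that restrains the cycle when forks stall, was at 16.6, 20.04, 18.5 and 18.3 CPM in CKO and 5.75, 5.45, 6.43 and 5.18 CPM in FLOX (3.21-fold, 95% interval 2.71 to 3.80; log2 fold change 1.68 with an SE of 0.10, adjusted p = 2.09e-07). Clspn (ENSMUSG00000042489, chromosome 4, 126556935 to 126593903, plus strand) encodes claspin, which brings CHEK1 to ATR, and was at 73.8, 95.2, 91.7 and 90.3 CPM in CKO and 25.4, 27.2, 38.3 and 26.7 CPM in FLOX (log2 fold change 1.57 with an SE of 0.13, adjusted p = 2.29e-06). The lowest CKO library of Chek1 was 2.58 times the highest FLOX library, and that of Clspn 1.93 times. Topbp1, which activates ATR, rose, with means of 93.5 ± 10.8 CPM in FLOX and 178 ± 13.6 CPM in CKO (mean ± SD, n = 4 per group; log2 fold change 0.93 with an SE of 0.09, adjusted p = 4.64e-06). The kinase Atr rose by 0.47 (SE 0.11, edgeR adjusted p = 0.00534) although CKO replicate 2 (29.1 CPM) lay just under FLOX replicate 7 (29.5 CPM). Its partner Atrip rose by 0.32 (SE 0.09), but 16.00% of its exon bases overlap Trex1 on the same strand, which leaves its count uncertain.

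In the arm of ATM and CHEK2, which answers to double-strand breaks, Chek2 was not called and the call of Atm was close to the threshold. Chek2 (ENSMUSG00000029521, chromosome 5, 110839979 to 110874145, plus strand) was at 54.6, 50.8, 51.2 and 45.8 CPM in CKO and 49.1, 44.6, 47.6 and 43.9 CPM in FLOX (log2 fold change 0.13 with an SE of 0.07, adjusted p = 0.161). Its groups overlapped, and the fit without CKO replicate 8, its lowest CKO library, called it (log2 fold change 0.19, edgeR adjusted p = 0.0466). The other 16 of 17 alternatives did not call Chek2. Atm was at 54.6, 66.6, 61.8 and 74.3 CPM in CKO and 32.7, 54.2, 39.3 and 58.9 CPM in FLOX (log2 fold change 0.48 with an SE of 0.17, adjusted p = 0.0443), with overlap of the groups. The call of Atm was lost in 7 of 17 alternatives: without CKO replicate 6 (edgeR adjusted p = 0.0964), 7 (0.0755) or 8 (0.116), without FLOX replicate 3 (0.0558) or 6 (0.115), without CKO replicate 2 and FLOX replicate 6 together (0.0906) and with no filter on low counts (0.11). The log2 fold change of Atm was near that of Atr (0.47), whose SE was smaller (0.11). FLOX replicates 4 and 7 were the high FLOX libraries of Atm. The share of read pairs that fell in no annotated gene was 6.52%, 7.48%, 7.60% and 8.51% in CKO and 7.67%, 9.41%, 7.02% and 9.60% in FLOX, highest in the same FLOX replicates 4 and 7 and, within CKO, in replicate 8, the highest CKO library of Atm. Its part in the Atm values was not tested.

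**Figure D4:**
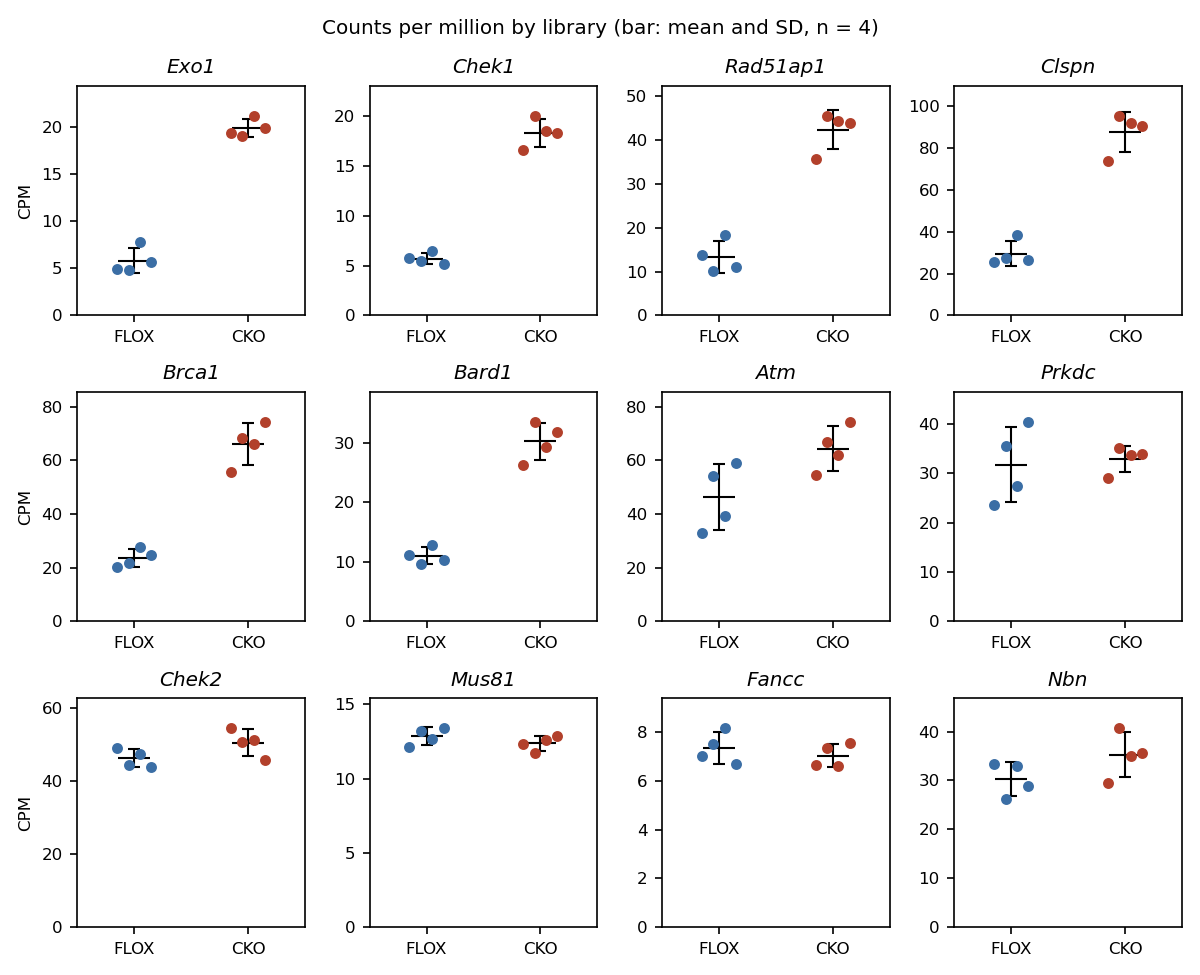
CPM (vertical axes, from 0) of 12 genes in the 4 FLOX (blue) and 4 CKO (red) libraries, with the mean and SD. Exo1, Chek1, Rad51ap1, Clspn, Brca1 and Bard1 show groups that do not overlap, whereas the groups overlap in Atm, Prkdc, Chek2, Mus81, Fancc and Nbn.

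Of the genes that sense breaks 3 of 5 rose. MRE11, RAD50 and NBN form the complex that first binds a broken end. Mre11a was at 31.6, 33.8, 36.1 and 34.97 CPM in CKO and 20.8, 25.8, 23.5 and 21.4 CPM in FLOX (log2 fold change 0.58 with an SE of 0.08, adjusted p = 0.000105). Rad50 rose, with means of 67.96 ± 7.95 CPM in FLOX and 88.9 ± 3.33 CPM in CKO (mean ± SD, n = 4 per group; log2 fold change 0.39). Nbn was at 29.6, 40.7, 35.01 and 35.7 CPM in CKO and 33.4, 26.2, 32.9 and 28.8 CPM in FLOX (log2 fold change 0.22 with an SE of 0.10, adjusted p = 0.107), and here CKO replicate 2 lay within the FLOX range. Without that library Nbn was called (log2 fold change 0.31, edgeR adjusted p = 0.0218), but in 15 of 17 alternatives it was not. H2afx (ENSMUSG00000049932, chromosome 9, 44334694 to 44336077, plus strand) encodes the histone variant that is phosphorylated around breaks. It was at 71.3, 74.1, 80.7 and 73.5 CPM in CKO and 36.7, 30.2, 50.5 and 33.4 CPM in FLOX (log2 fold change 0.98 with an SE of 0.13, adjusted p = 9.81e-05), with no overlap of the groups. Trp53bp1, which shields ends from resection and so favours end joining, had a log2 fold change of 0.12 (SE 0.09, edgeR adjusted p = 0.276) and ranges that overlapped.

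Of the end joining members 4 of 5 rose, with Polq far ahead, whereas of 10 further end joining genes 1 rose and 3 fell. Polq encodes the polymerase of end joining through short shared stretches, a pathway used in replicating cells, and was at 24.1, 33.2, 31.99 and 29.4 CPM in CKO and 9.46, 13.99, 12.7 and 13.8 CPM in FLOX (log2 fold change 1.25 with an SE of 0.13, adjusted p = 9.12e-06). Parp1, the enzyme that marks breaks with poly(ADP-ribose), was at 163, 179, 175 and 171 CPM in CKO and 133, 119.5, 145 and 127 CPM in FLOX (log2 fold change 0.39 with an SE of 0.07, adjusted p = 0.000458). The groups did not overlap in either gene, although the rise of Parp1 was small. The Ku subunits that cap broken ends rose by 0.64 (Xrcc6) and 0.68 (Xrcc5), the latter with means of 2.23 ± 0.128 CPM in FLOX and 3.58 ± 0.574 CPM in CKO (mean ± SD, n = 4 per group). Prkdc, the kinase that Ku recruits, was at 29.2, 35.1, 33.8 and 33.96 CPM in CKO and 23.6, 35.6, 27.5 and 40.5 CPM in FLOX (log2 fold change 0.06 with an SE of 0.14, adjusted p = 0.762). FLOX replicates 4 and 7 exceeded all CKO libraries of Prkdc and FLOX replicates 3 and 6 lay below all of them, and its sign turned without FLOX replicate 3 (log2 fold change -0.057) or FLOX replicate 6 (-0.0082).

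All 3 genes of fork repair rose to about a doubling. Tonsl and Mms22l encode partners that act together at damaged forks. Tonsl was at 13.8, 16.3, 15.6 and 15.2 CPM in CKO and 7.29, 4.99, 9.45 and 7.88 CPM in FLOX (log2 fold change 1.02 with an SE of 0.15, adjusted p = 0.000124). Mms22l was at 26.8, 27.6, 27.9 and 28.8 CPM in CKO and 13.6, 11.95, 16.9 and 13.6 CPM in FLOX (log2 fold change 0.98 with an SE of 0.10, adjusted p = 7.05e-06). Rad18, the ubiquitin ligase that marks PCNA for bypass of damage, was at 24.2, 31.8, 24.7 and 27.8 CPM in CKO and 10.7, 11.1, 15.4 and 16.6 CPM in FLOX (log2 fold change 1.00 with an SE of 0.14, adjusted p = 0.000106). None of the 3 had groups that overlapped.

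Levels were compared between members per length. Per kilobase of annotated exon, H2afx was the highest of the 45 in both groups (27.3 CPM per kb in FLOX, 54.1 in CKO), followed by Parp1 (24.8 and 32.5) and Chek2 (15.4 and 16.9). The lowest in FLOX were Rad51c (0.574), Brca2 (0.687) and Exo1 (0.691). Clspn moved from rank 11 of 45 in FLOX to rank 7 in CKO and Exo1 from 43 to 33. Mus81 moved from rank 15 to rank 26 with a level per kb of 3.61 in FLOX and 3.47 in CKO. These ranks rest on group means and on the union of all annotated exons, which can be longer than the transcripts these cells use.

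Several members encode proteins that work together, and CHEK1 and CHEK2 are the kinases of the 2 checkpoint arms. The log2 ratio of 12 such pairs of genes within each library was compared by an exact permutation test (two-sided, 4 against 4 libraries, where 0.0286 is the smallest p it can give). These pairs were chosen after the values had been seen. Brca1 to Bard1 was 1.13 ± 0.09 in CKO and 1.11 ± 0.17 in FLOX (mean ± SD, n = 4 per group; exact p = 0.886). Brip1 to Brca1 was -0.51 ± 0.05 in CKO and -0.51 ± 0.08 in FLOX (exact p = 0.914), and Fancd2 to Fanci 0.55 ± 0.06 in CKO and 0.65 ± 0.12 in FLOX (exact p = 0.143). In these pairs the mean ratio moved by less than 0.1 on the log2 scale. The ratio of Eme1 to Mus81 was 0.74 ± 0.10 in CKO and -0.38 ± 0.31 in FLOX, that of Chek1 to Chek2 -1.46 ± 0.18 in CKO and -3.03 ± 0.09 in FLOX and that of Brca2 to Palb2 0.60 ± 0.23 in CKO and 0.03 ± 0.22 in FLOX. For each of these 3 pairs the libraries of the groups did not overlap and the exact p was 0.0286. Adjusted over the 12 pairs it was 0.114. Eme1, Chek1 and Brca2 each separated the groups by themselves, so these p-values are not independent of the results for single genes. With 12 pairs an adjusted p under 0.05 needs at least 7 pairs at the smallest p, so the adjusted values say little about these ratios either way. The other 6 pairs (Atr to Atrip, Mre11a and Nbn to Rad50, Xrcc6 to Xrcc5 and to Prkdc, and Tonsl to Mms22l) had ratios that overlapped, with exact p from 0.143 to 0.943.

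**Figure D5:**
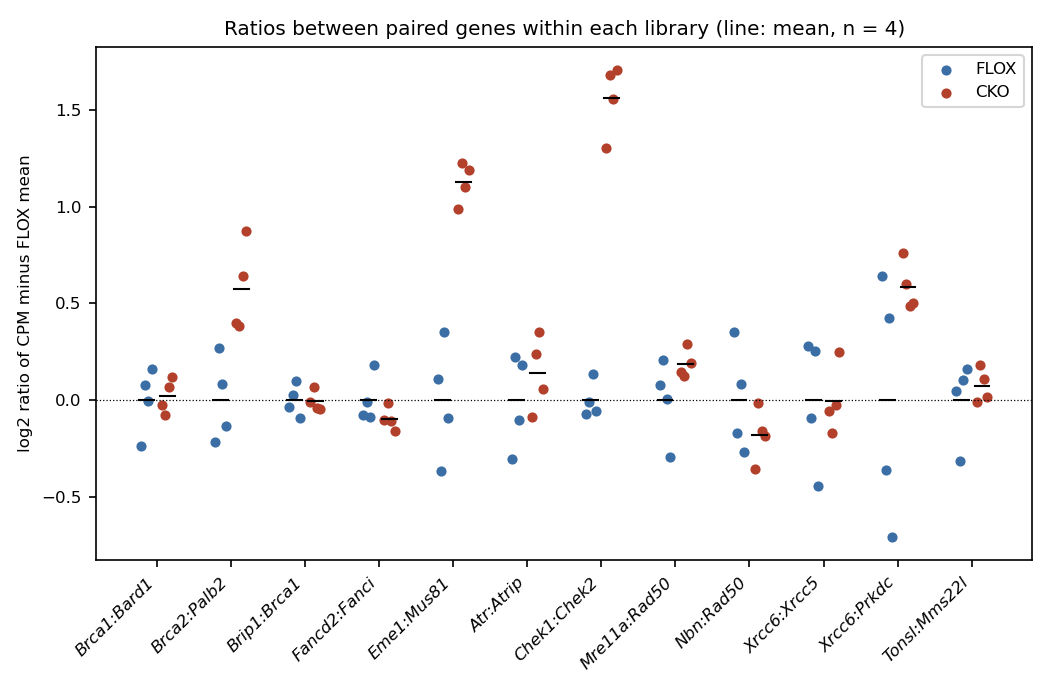
Log2 ratio of CPM between the 2 genes of a pair minus its FLOX mean (vertical axis) for 12 pairs (horizontal axis) in each FLOX (blue) and CKO (red) library, with the mean as a line. The ratios Eme1 to Mus81, Chek1 to Chek2 and Brca2 to Palb2 are higher in all 4 CKO libraries than in all 4 FLOX libraries, and Brca1 to Bard1 lies around 0 in both groups.

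The spread within each group had a shared direction. CKO replicate 2 was the lowest CKO library for 31 of the 38 genes that rose and the highest for none, and FLOX replicate 6 was the highest FLOX library for 25 and the lowest for none. Both are thus the libraries nearest to the other group for most members. Without the pair of them 39 members were called higher and 0 lower, 37 of them shared with the 38, and the median log2 fold change was 1.05. The SD was between 3.00% and 16.0% of the mean in CKO (median 9.68%) and between 3.99% and 45.4% in FLOX (median 14.8%).

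Other repair genes, of the same pathways and of excision repair, were counted in the same way. They include 17 genes of base excision and 17 of nucleotide excision, described at the end. The median log2 fold changes of these 2 roles were 0.07 and -0.0065. Of 131 further repair genes in the files 130 were tested, 55 rose and 11 fell (42.3% and 8.46%, beside 23.8% and 21.6% of all tested genes), with a median log2 fold change of 0.14. Checkpoint genes rose in 13 of 16 cases, among them Rpa2 (1.38), a subunit of the coat of single-stranded DNA, Timeless (1.52), which protects forks, and the kinase gene Cdc7 (1.19). The checkpoint genes Rad17 (-0.00047), Rad9a (-0.0045) and Rad1 (0.19) were not called. In recombination 8 of 13 rose, among them Fignl1 (1.71) and Psmc3ip (1.28), and Rad52 fell (-0.29). Among 16 Fanconi genes 6 rose, with Ube2t (1.26), the ubiquitin-conjugating partner of FANCL, and Usp1 (0.87), which removes that ubiquitin. The nuclease subunit Slx1b fell (-0.38).

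Of 11 further junction enzymes 5 rose, with Rmi2 (1.46), a partner of BLM, Recql4 (1.30) and the junction nuclease gene Gen1 (1.03), and Eme2, an alternative partner of MUS81, fell (-0.45). Of 7 mismatch repair genes 5 rose, with the ligase gene Lig1 (1.31) and the clamp gene Pcna (0.66), and none fell (0 at an unadjusted p under 0.05). Break signalling had 6 of 12 that rose, with Paxip1 (0.66), Mdc1 (0.64) and Rnf168 (0.49), and 1 that fell, the acetyltransferase gene Kat5 (-0.21). Fork repair had 3 of 12 that rose (25%, near the 23.8% of all tested genes), with Polh (0.99), a polymerase of damage bypass, Zranb3 (1.25) and Atad5 (1.37), and 1 that fell, Ube2b (-0.36), the ubiquitin-conjugating partner of RAD18. In end joining, of 10 genes 1 rose (Aplf, 0.32) and 3 fell, namely the end-trimming nuclease gene Dclre1c (-0.33) and the polymerase genes Polm (-0.29) and Poll (-0.30). Values in parentheses in these sentences are log2 fold changes, and each gene said to rise or fall passed an edgeR adjusted p of 0.05.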

How the data were processed

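For these paired-end libraries of total RNA the submitters' processing notes name HISAT2 2.0.5, mm10 and HTSeq. The annotation, the strand setting and the version of HTSeq are not stated in these sources, so overlapping genes are uncertain. Beside Rad54b and Atrip, this concerns Fancc (18.6% of exon bases shared with other genes), Fanci (16%), Rad54l (15.4%) and Trp53bp1 (15%) most. In each of these 4 the longest overlap is with a gene on the opposite strand. The deposited values are raw counts per gene symbol in 1 file per library, and 5 classes of unassigned pairs (28.3% to 33.7% of pairs) stayed out of library sizes and tests. The table of the whole series repeats these counts and was not used further.

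Low genes were removed with filterByExpr (count of 10, total of 15), and counts were scaled by TMM and tested with edgeR 4.0.16 (R 4.3.3), quasi-likelihood F test with robust settings, Benjamini-Hochberg adjustment and a threshold of 0.05. The SE was derived from the log2 fold change and its F statistic, and 95% intervals from a t distribution on 6 degrees of freedom. The fit was tested on simulated data. DESeq2 1.42.0 and limma-voom 3.58.1 were alternatives, beside other scalings, filters, omitted libraries, a replicate block and removal of the 20 most abundant genes. Libraries of a group differed by more than sampling noise (chi-square 2.45 to 27.8 per degree of freedom). In FLOX this value was 6.45 between replicates 3 and 6 and 4.51 between replicates 4 and 7. Between these 2 sets of FLOX libraries it was 15.6 to 27.8. In CKO it was 7.42 to 9.63 for pairs with replicate 2 and 2.45 to 3.05 for the others. No batch is labelled, and the cause of the split in FLOX was not tested. The members, lists and rule for named genes were chosen with earlier results of these data known: values in every library go to the 2 members of each role with the smallest p and to all with a log2 fold change of at least 1, and up to 3 called genes of smallest p are named per role of the other repair genes, of which some are not reported here. Slx1b, Rad52, Eme2, Kat5, Ube2b, Poll, Neil1, Neil2, Rad17, Rad9a, Rad1, Atm, Prkdc, the cell type markers and the members not called are also given, after their values were seen. Positions and exon lengths are from GENCODE M21 (GRCm38), which had all 45 members, and promoters from RefSeq. A count of SQ and TQ pairs in the proteins was not run.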

Additional observations from a re-analysis of the deposited data

Results flagged for a closer look

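In 5 cases 1 library stood far from the other 3 of its group, by the gap to its nearest neighbour relative to the range of the group (Dixon's criterion at the 95% level). The 92 groups of 4 libraries looked at come from the same libraries and are not independent. The number that chance would flag is thus not known. All 5 cases fell on CKO replicate 2 or FLOX replicate 6. CKO replicate 2 was low for Rad51ap1 (35.7 CPM, the others 43.9 to 45.5), Fancd2 (33.3 CPM, the others 43.9 to 45.1) and Atr (29.1 CPM, the others 37.1 to 38.2). FLOX replicate 6 was high for Rad54l (21.0 CPM, the others 14.2 to 14.97) and Clspn (38.3 CPM, the others 25.4 to 27.2). Without the single library named, each of the 5 genes was still called higher in CKO.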

How the results depend on the processing

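Over 17 alternatives, of which 1 was chosen after seeing the data, 34 to 40 members were called higher and 0 lower, and 33 of the 38 kept their call in all 17. The exceptions were Atm and, with the replicate number as a block, Xrcc3, Fancg, Atrip and Rad50 (34 called; edgeR adjusted p = 0.0965, 0.0854, 0.343 and 0.0577; log2 fold change of Atrip 0.21 in place of 0.32). Only numbers 6 and 7 occur in both groups, so under the block the contrast of the groups rests on the libraries with these numbers. Libraries of the same number had correlated deviations of 0.14 and -0.07, so the numbers are not known to pair libraries. Under the block 1518 of all tested genes and 4 other repair genes were lower, in place of 2492 and 11. Leaving out 1 library gave 7 to 12 other repair genes that fell (7 without CKO replicate 2 or 8) and a median of theirs from 0.13 to 0.19, and for Opa1 a log2 fold change from -0.23 to -0.12. Prkdc, not called, ranged from -0.057 to 0.20 then, and the median of the members was 0.86 at the lowest. Upper-quartile factors called Opa1 (-0.18, edgeR adjusted p = 0.0446). Removing the 20 most abundant genes gave a median of 0.16 for the other repair genes, and shifted the log2 fold changes of all tested genes by a median of 0.020. Without CKO replicate 2 and FLOX replicate 6 together, the medians were 1.05 for the members and 0.19 for the other repair genes, 5 of which fell, and Fancc, not called, turned to 0.043 (-0.11 was its lowest value in any fit that left out libraries). Beyond these facts of the block and of the scaling, the cause of these changes was not tested. No scaling moved the median of all genes by over 0.1.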

Other observations

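Excision repair replaces damaged bases or short stretches and works without a sister chromatid. Of 16 tested genes of base excision 5 rose and 2 fell (31.2% and 12.5%, beside 23.8% and 21.6% of all tested genes). Ung, which removes uracil from DNA, was at 7.54, 8.63, 9.12 and 8.63 CPM in CKO and 2.73, 2.19, 2.92 and 2.27 CPM in FLOX (log2 fold change 1.73 with an SE of 0.13, adjusted p = 9.53e-07). Neil3, a glycosylase of replicating cells, rose by 1.20 and the flap nuclease gene Fen1 by 0.67, whereas the glycosylase genes Neil1 (-0.44) and Neil2 (-0.59) fell. Of 17 genes of nucleotide excision 3 rose and 1 fell (17.6% and 5.88%, median -0.0065, log2). The one that fell was Xpa, a damage verifier, at 7.71, 9.10, 8.32 and 8.02 CPM in CKO and 15.1, 11.3, 13.98 and 10.5 CPM in FLOX (log2 fold change -0.62 with an SE of 0.12, adjusted p = 0.00145).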
